A study of Mus musculus with 14 samples.

Results

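Tmem86a, Ap5s1 and Cyb5r1 were 3 genes that stood higher on arrays of mouse macrophages given the LXR agonist GW3965 together with an inflammatory stimulus than on arrays of macrophages given the stimulus alone. They were selected on that difference, from 8841 genes named by the platform annotation, and each was read by 1 probe. The series held 14 microarrays of RNA from thioglycollate-elicited peritoneal macrophages of female C57BL/6 mice aged 6 weeks, 2 arrays in each of 7 groups. These groups were GW3965 + LPS, GW3965 + poly(I:C), GW7845 + LPS, GW7845 + poly(I:C), LPS, poly(I:C) and untreated cells. LPS is a bacterial lipopolysaccharide sensed by TLR4, poly(I:C) is a synthetic double-stranded RNA sensed by TLR3, and GW7845 is an agonist of the nuclear receptor PPARγ. Agonists were given only along with a stimulus, so every agonist value was measured in stimulated cells. Doses and treatment times were not stated, and the 2 replicates of a group are called biological without saying whether each was 1 animal or a pool.

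Liver X receptors (LXRs) are nuclear receptors for oxidised cholesterol. They pair with the retinoid X receptor on DNA, at repeats of a short hexamer, and switch on genes of cholesterol export and fatty acid synthesis such as Abca1, Abcg1 and Scd2. In macrophages the LXRs are also known for opposing inflammatory gene expression. The 3 genes described here lie outside the usual textbook list. Tmem86a encodes a membrane protein of the lysoplasmalogenase family, whose relative Tmem86b cleaves lysoplasmalogens, breakdown products of ether phospholipids. Ap5s1 encodes the sigma subunit of the AP-5 adaptor complex, which in human cells sorts cargo out of late endosomes together with the spastic paraplegia proteins SPG11 and SPG15. Cyb5r1 encodes a membrane flavoprotein of the NADH-cytochrome b5 reductase family, and in human cells it has been linked, with cytochrome P450 reductase, to lipid peroxidation in ferroptosis.

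The upstream sequences of the 3 genes are shown because the genes were selected for a shared response to an agonist of a DNA-binding receptor. Each run is the 250 bases before the annotated gene start in RefSeq (mouse GRCm38.p6, plus strand), with every CG dinucleotide in capitals.
Tmem86a, chr7:47050390-47050639: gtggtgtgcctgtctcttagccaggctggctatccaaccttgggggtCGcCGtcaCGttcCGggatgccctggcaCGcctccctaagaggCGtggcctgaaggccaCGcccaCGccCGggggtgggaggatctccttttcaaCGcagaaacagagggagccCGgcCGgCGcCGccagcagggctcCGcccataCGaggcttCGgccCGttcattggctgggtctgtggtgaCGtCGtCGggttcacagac
Ap5s1, chr2:131210110-131210359: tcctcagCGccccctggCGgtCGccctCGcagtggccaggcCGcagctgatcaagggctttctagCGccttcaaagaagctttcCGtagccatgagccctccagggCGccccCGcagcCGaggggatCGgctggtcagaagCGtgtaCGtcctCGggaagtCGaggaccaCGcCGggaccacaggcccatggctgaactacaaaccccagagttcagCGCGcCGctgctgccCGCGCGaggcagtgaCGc
Cyb5r1, chr1:134405531-134405780: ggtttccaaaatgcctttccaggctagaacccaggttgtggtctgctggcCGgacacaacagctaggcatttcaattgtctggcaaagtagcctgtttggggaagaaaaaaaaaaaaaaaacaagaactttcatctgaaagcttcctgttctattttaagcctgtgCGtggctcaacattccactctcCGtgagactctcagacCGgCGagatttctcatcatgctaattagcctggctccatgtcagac
The annotated genes run from 47050640 to 47054776 on chromosome 7 (Tmem86a), from 131210360 to 131213514 on chromosome 2 (Ap5s1) and from 134405781 to 134411738 on chromosome 1 (Cyb5r1). Tmem86a and Ap5s1 had CG-rich starts, with 21 and 24 CG dinucleotides in these 250 bases, whereas Cyb5r1 had 5. Over windows that also took the first 50 bases of the gene, the GC content was 66% for Tmem86a, 66.7% for Ap5s1 and 45.7% for Cyb5r1, against a median of 52.7% over 32851 RefSeq mouse windows of the same 300 bases. The nuclear receptor half-site AGGTCA was searched on both strands and was found in none of the 3 windows, while 16.3% of all windows held it. The direct repeat with a 4-base spacer (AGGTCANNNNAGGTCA, both strands) was matched with no fewer than 4 mismatches in Tmem86a, 4 in Ap5s1 and 5 in Cyb5r1, and 21.9% of all windows held a match with at most 3. These letters were absent from these windows only, and more distant sequence was not examined.

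Values are linear intensities that the authors had scaled, so 1 is the median probe of an array. Tmem86a lay between the 59.5th and 90.5th percentile of its arrays, Ap5s1 between the 46.7th and 76.3rd, and Cyb5r1 between the 78.2nd and 90.3rd. The levels of different probes are not compared with each other. The arrays fell into 2 sets of 7, A and B, which differed in their dim probes, and each set held 1 array of every group, so differences are also given within each set. Between the 2 arrays of a group, Spearman's rho over all probes was 0.9295 to 0.9656. Replicate 1 of GW3965 + LPS stood apart, with 30 probes at least 4-fold below every other stimulated array of its set, and replicate 1 of GW7845 + poly(I:C) had 29 probes at least 4-fold above. Of 10 macrophage markers, 7 were measured, and their summed intensity was 1141 to 2774 on every array, with Lyz2 alone at 998 to 1939. Fcgr1 lay below the array median throughout, at no more than 0.347.

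**Figure D1:**
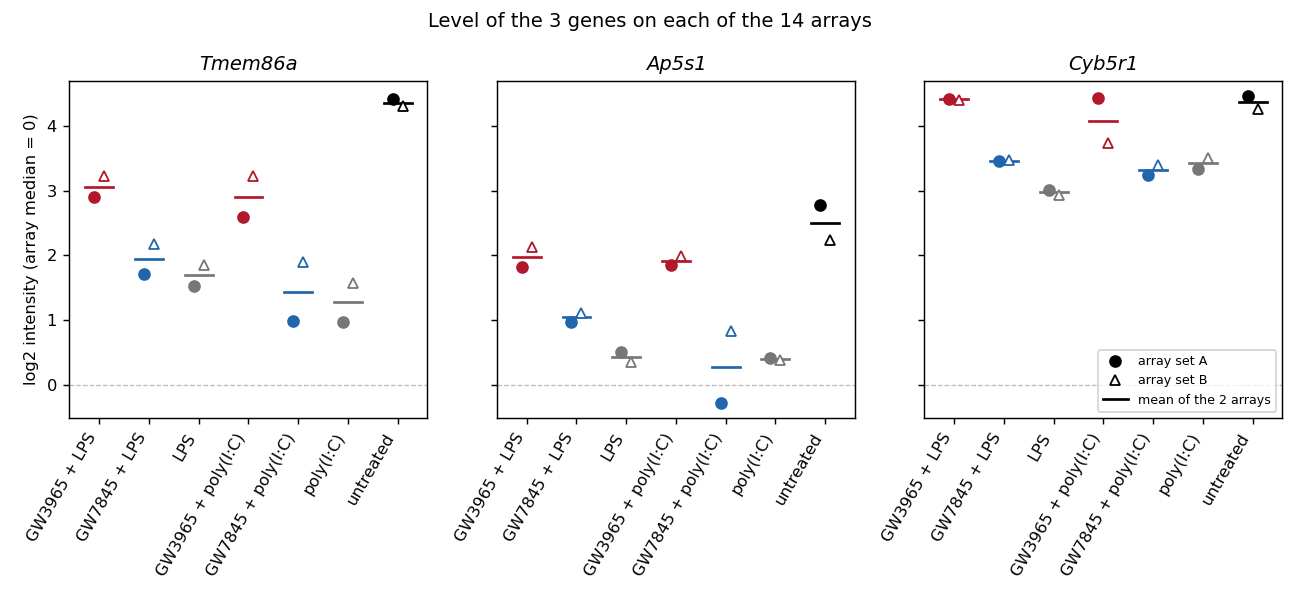
Log2 intensity of Tmem86a, Ap5s1 and Cyb5r1 (array median at 0, dashed) in each group, with 1 point for each array (filled circles for array set A, open triangles for set B) and a bar at the mean of the 2 arrays. All GW3965 points of each gene lie above those of the same stimulus alone, and Tmem86a is highest in untreated cells.

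Tmem86a was high in untreated cells and low in all stimulated cells without GW3965. Its intensity was 7.48 and 9.30 in GW3965 + LPS cells, against 2.89 and 3.60 in LPS cells. Under poly(I:C) it was 6.03 and 9.34 with GW3965, against 1.96 and 2.97 without. In untreated cells it was 21.2 and 19.8, above all 12 stimulated arrays. The GW3965 arrays therefore lay in a range of their own, which overlapped neither the stimulus alone nor the untreated cells. As the basis of selection these differences carry no test. They were +1.37 on the log2 scale for LPS (2.59-fold, SE 0.40, 95% interval 0.52 to 2.23) and +1.64 for poly(I:C) (3.11-fold, SE 0.40, interval 0.78 to 2.49). Within array sets A and B the LPS difference was 1.37 in each, and the poly(I:C) difference was 1.62 and 1.65. Measured against untreated cells, GW3965 + LPS cells were lower by a log2 difference of -1.30 (2.46-fold lower, SE 0.40) and GW3965 + poly(I:C) cells by -1.45 (2.74-fold lower, SE 0.40). The GW3965 difference amounted to 51.4% of the log2 difference between LPS and untreated cells, and 53% of that between poly(I:C) and untreated cells.

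Ap5s1 showed the same order of untreated, GW3965 and stimulus-only arrays. It had 3.54 and 4.37 in GW3965 + LPS cells, against 1.42 and 1.28 in LPS cells. It had 3.61 and 3.95 in GW3965 + poly(I:C) cells, against 1.33 and 1.31 in poly(I:C) cells. Untreated cells had 6.84 and 4.71, so the 4 GW3965 arrays again lay between the untreated and the stimulus-only arrays without overlap. The log2 difference was +1.55 under LPS (2.92-fold, SE 0.39, interval 0.70 to 2.39) and +1.52 under poly(I:C) (2.87-fold, SE 0.39, interval 0.67 to 2.36). Against untreated cells it was -0.53 with GW3965 + LPS (SE 0.39, interval -1.37 to 0.32) and -0.59 with GW3965 + poly(I:C) (SE 0.39, interval -1.43 to 0.26). The GW3965 difference amounted to 74.5% of the log2 difference between LPS and untreated cells, and 72.1% for poly(I:C).

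For Cyb5r1 the GW3965 arrays overlapped those of untreated cells. Its intensity was 21.3 and 21.1 in GW3965 + LPS cells, against 8.08 and 7.64 in LPS cells. Under poly(I:C) it was 21.5 and 13.3 with GW3965, against 10.1 and 11.4 without. Untreated cells had 21.9 and 19.2, which overlapped both GW3965 groups. The log2 difference was +1.43 under LPS (2.70-fold, SE 0.32, interval 0.74 to 2.12) and +0.66 under poly(I:C) (1.58-fold, SE 0.32, interval -0.03 to 1.35). The poly(I:C) value was uneven between array sets, 1.09 in A and 0.23 in B, and it was 0.32 without GW3965 + poly(I:C) replicate 1 and 1.00 without replicate 2. Against untreated cells the log2 difference was +0.05 with GW3965 + LPS (SE 0.32, interval -0.64 to 0.73) and -0.28 with GW3965 + poly(I:C) (SE 0.32, interval -0.97 to 0.41). The difference between the poly(I:C) and LPS effects of GW3965 on Cyb5r1 was -0.77 on the log2 scale (interval -1.75 to 0.20), a description like the effects themselves.

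Many probes were apart in the same way. Of the probes measured, 12.3% had both GW3965 + LPS arrays above both LPS arrays, and 8.36% had both GW3965 + poly(I:C) arrays above both poly(I:C) arrays. All 3 genes did so under each stimulus, which is the basis of their selection. By size, the GW3965 + poly(I:C) difference of Tmem86a was the 22nd highest of 9584 probes, that of Ap5s1 the 26th and that of Cyb5r1 the 450th. The GW3965 + LPS difference of Ap5s1 was the 66th highest, that of Cyb5r1 the 104th and that of Tmem86a the 126th, so the order of the 3 genes was not the same under the 2 stimuli. In limma over all probes, GW3965 + LPS against LPS gave 3 called probes (0.0313% of 9584, Benjamini-Hochberg adjusted p under 0.05), and 39 (0.407%) with array set as a block. GW3965 + poly(I:C) against poly(I:C) gave 1 called probe (0.0104%), and 7 (0.073%) with the block. None of the 7 macrophage markers tested had a log2 difference above 0 with GW3965 under either stimulus, and none was called. Their medians were -0.28 under LPS and -0.36 under poly(I:C), against 0.03 and -0.10 over all probes. The summed neutrophil markers were also lower with GW3965. Of 8 listed, 6 were measured, and their summed intensity was 17.9 to 20.4 in GW3965 + LPS cells against 31.5 to 46.7 in LPS cells, and 16.3 to 16.6 in GW3965 + poly(I:C) cells against 23.9 to 50.9 in poly(I:C) cells. S100a8, which macrophages also express, made up most of that sum (13.2 to 55.5), and the granule gene Camp ranged from 0.118 to 7.48. The other 4 measured, the granule genes Mpo, Elane, Ngp and Ltf, were at no more than 0.848 on any array. The log2 difference of Camp with GW3965 was -1.05 under LPS and -1.54 under poly(I:C) (SE 0.57, neither called). S100a8 had -1.06 and -1.08. The other genes tested did not move as 1: Ngp had -0.14 and +0.49, Ltf -0.48 and -0.04, and Elane +0.77 and -0.14. None of the 5 markers tested was called in either comparison, with or without the block. The part of these cells in the result was not tested. In bulk RNA, fewer cells of a type and less RNA per cell cannot be told apart.

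GW7845 arrays of the 3 genes overlapped those of the stimulus alone, except for Ap5s1 and Cyb5r1 under LPS. Tmem86a was 4.49 and 3.26 in GW7845 + LPS cells and 1.98 and 3.71 in GW7845 + poly(I:C) cells, and both pairs overlapped the stimulus-only arrays. Its log2 difference was +0.25 against LPS (SE 0.40, interval -0.61 to 1.102) and +0.17 against poly(I:C) (SE 0.40, interval -0.69 to 1.02). Ap5s1 was 2.16 and 1.97 in GW7845 + LPS cells, above both LPS arrays, with a log2 difference of +0.62 (SE 0.39, interval -0.23 to 1.46). Cyb5r1 was 11.1 and 11.0 in GW7845 + LPS cells, also above both LPS arrays, with a log2 difference of +0.49 (SE 0.32, interval -0.20 to 1.18). The GW7845 difference amounted to 29.7% of the log2 difference between LPS and untreated cells for Ap5s1, 35.2% for Cyb5r1 and 9.28% for Tmem86a. Of all probes, 9.01% had both GW7845 + LPS arrays above both LPS arrays, against 2 of these 3 genes. Under poly(I:C), none of the 3 did, against 6.69% of all probes. There Ap5s1 was 0.825 and 1.78 in GW7845 cells, and Cyb5r1 was 9.45 and 10.5, with log2 differences of -0.12 (SE 0.39) and -0.10 (SE 0.32). The sign for Ap5s1 rests on 1 array, since the difference was +0.44 without GW7845 + poly(I:C) replicate 1 and -0.67 without replicate 2. These comparisons share their stimulus arrays with the GW3965 comparisons, so they are given with no test of the 3 genes.

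Set directly against each other, GW3965 arrays were higher than GW7845 arrays for all 3 genes under both stimuli, with no overlap. Over all probes, 1227 of 9527 were apart in this direction under LPS and 810 of 9509 under poly(I:C). The log2 difference of GW3965 + LPS against GW7845 + LPS was 1.12 for Tmem86a, 0.93 for Ap5s1 and 0.94 for Cyb5r1. For GW3965 + poly(I:C) against GW7845 + poly(I:C) it was 1.47, 1.64 and 0.76. The GW3965 arrays are those the genes were selected on, and this too is a description.

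**Figure D2:**
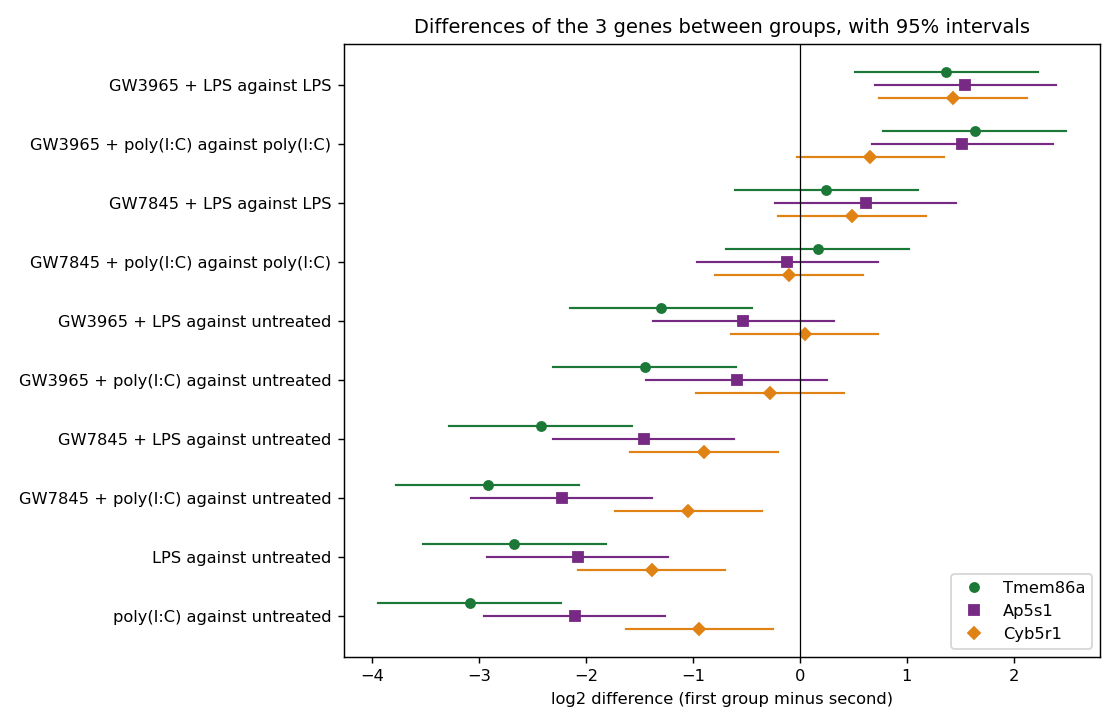
Log2 difference (first group minus second) of the 3 genes in 10 comparisons, with the 95% interval of the fit over all 14 arrays. GW3965 differences against the same stimulus lie above 0, and the interval of Cyb5r1 under poly(I:C) is the only one of these to include it. GW7845 differences against the same stimulus all have intervals that include 0. Stimulated cells without GW3965 lie below untreated cells.

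Stimulated cells with no agonist held less of each transcript than untreated cells. LPS arrays were below untreated arrays by a log2 difference of -2.67 for Tmem86a (6.37-fold lower, SE 0.40), -2.08 for Ap5s1 (4.22-fold lower, SE 0.39) and -1.39 for Cyb5r1 (2.61-fold lower, SE 0.32). Poly(I:C) arrays were below them by -3.09 (8.50-fold lower), -2.11 (4.31-fold lower) and -0.94 (1.92-fold lower). All 3 genes had both stimulated arrays below both untreated arrays, as had 18.1% of all probes for LPS and 16.9% for poly(I:C). Poly(I:C) and LPS arrays overlapped for Tmem86a and Ap5s1. Cyb5r1 was higher with poly(I:C) on both arrays (10.1 and 11.4) than with LPS (8.08 and 7.64), with a log2 difference of +0.45 (SE 0.32, interval -0.24 to 1.14).

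The difference between stimulated and untreated cells was tested with GW7845-treated stimulated cells against untreated cells, whose means do not enter the GW3965 comparisons. The genes were chosen with earlier results of these data known. Whether that choice also drew on these means is not known, so they are not taken as independent of it. The SE and p-values use the spread between replicates of all arrays, including those the genes were selected on. The p-values of the 3 genes may therefore be too low, and by how much was not tested. In limma over 9584 probes, Tmem86a fell in both comparisons, and Ap5s1 did too. Cyb5r1 did not, and passed when array set was a block. Tmem86a averaged 3.88 ± 0.87 in GW7845 + LPS cells and 20.5 ± 1.0 in untreated cells (SD, n = 2 each), and its log2 difference was -2.42 (5.36-fold lower, SE 0.40, limma adjusted p = 0.0014). In GW7845 + poly(I:C) cells it averaged 2.85 ± 1.22 (SD, n = 2), and the difference from untreated cells was -2.92 (7.57-fold lower, SE 0.40, limma adjusted p = 0.00027). Every GW7845 array was below every untreated array for Tmem86a. Over all probes, 1883 of 9527 were apart in this direction for GW7845 + LPS and 1459 of 9519 for GW7845 + poly(I:C). With 1 array left out, with or without the array set block, the log2 difference of Tmem86a was -2.742 to -2.104 for GW7845 + LPS. For GW7845 + poly(I:C) it was -3.372 to -2.466. The neutrophil marker sum, mostly S100a8, also differed in these comparisons. It was 32 to 39.4 in GW7845 + LPS cells and 47.9 to 60.4 in GW7845 + poly(I:C) cells, against 16.4 to 28.6 in untreated cells, with no overlap. Of the 5 tested, Camp was the 1 called higher without the block, by a log2 difference of 3.84 in GW7845 + LPS cells (limma adjusted p = 0.00062) and 4.09 in GW7845 + poly(I:C) cells (limma adjusted p = 3e-04). With array set as a block, S100a8 was called higher in GW7845 + poly(I:C) cells (+1.28, limma adjusted p = 0.018). Ltf went the other way, called lower with the block in GW7845 + LPS cells (-1.845, limma adjusted p = 0.022) and at -0.77 in GW7845 + poly(I:C) cells. Ngp (+0.86 and +0.39) and Elane (+0.04 and +0.63) were not called. Camp is named after its values were seen, and the part of neutrophils in the 3 genes' differences was not tested.

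Ap5s1 averaged 1.30 ± 0.68 in GW7845 + poly(I:C) cells and 5.77 ± 1.51 in untreated cells (SD, n = 2 each). Its log2 difference was -2.23 (4.68-fold lower, SE 0.39, limma adjusted p = 0.0022). In GW7845 + LPS cells it averaged 2.06 ± 0.13 (SD, n = 2), with a difference of -1.46 from untreated cells (2.75-fold lower, SE 0.39, limma adjusted p = 0.04, and 0.0089 with array set as a block). This second call needed all 4 arrays. Without GW7845 + LPS replicate 1 the limma adjusted p was 0.15, without its replicate 2 it was 0.2, without untreated replicate 1 it was 0.3 and without untreated replicate 2 it was 0.059. Cyb5r1 averaged 11.0 ± 0.075 in GW7845 + LPS cells and 9.99 ± 0.76 in GW7845 + poly(I:C) cells, against 20.6 ± 1.9 in untreated cells (SD, n = 2 each). Its log2 differences from untreated cells were -0.90 with LPS (1.86-fold lower, SE 0.32, limma adjusted p = 0.14) and -1.04 with poly(I:C) (2.06-fold lower, SE 0.32, limma adjusted p = 0.071). With array set as a block the limma adjusted p was 0.026 for LPS and 0.011 for poly(I:C). The first was lost without any 1 of its 4 arrays (limma adjusted p = 0.082 to 0.16). The second was lost without untreated replicate 1 (0.085), untreated replicate 2 (0.051) or GW7845 + poly(I:C) replicate 1 (0.085).

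Against these calls, 212 of 9584 probes (2.21%) fell in GW7845 + LPS cells and 229 (2.39%) in GW7845 + poly(I:C) cells. With array set as a block the shares were 8.99% and 6.7%. GW7845 + poly(I:C) against GW7845 + LPS was called at 1 probe (0.0104%) and, with the block, at 11 (0.115%), and none of the 3 genes was among them. The differences were -0.50 for Tmem86a (interval -1.35 to 0.36), -0.77 for Ap5s1 (interval -1.61 to 0.08) and -0.14 for Cyb5r1 (interval -0.83 to 0.54), each with a limma adjusted p of 1. The intervals do not show equal levels under the 2 stimuli.

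Ordered by mean log2 intensity, Tmem86a was highest in untreated cells, next in GW3965 + LPS and GW3965 + poly(I:C) cells, and then in GW7845 + LPS, LPS, GW7845 + poly(I:C) and poly(I:C) cells. Among neighbours in this order, the arrays were separate only between untreated and GW3965 + LPS cells and between GW3965 + poly(I:C) and GW7845 + LPS cells. For Ap5s1 the order began the same way, and the arrays of GW7845 + LPS cells were also separate from those of LPS cells, which came next before poly(I:C) and GW7845 + poly(I:C) cells. For Cyb5r1, GW3965 + LPS, untreated and GW3965 + poly(I:C) cells overlapped at the top. GW7845 + LPS, poly(I:C) and GW7845 + poly(I:C) cells followed, with overlaps between neighbours, and LPS cells were separate at the bottom.

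Over all 14 arrays, after each probe was centred within its array set, Tmem86a and Ap5s1 ran closely together (Pearson r = 0.952), and each was the most similar of 8511 other named probes to the other. Cyb5r1 had r = 0.894 with Ap5s1 and 0.84 with Tmem86a, where it ranked 94th. The 14 arrays include the GW3965 groups that the genes were selected on, so r is a description. Over the 10 arrays without GW3965, r was 0.963 between Tmem86a and Ap5s1, 0.906 between Ap5s1 and Cyb5r1 and 0.903 between Tmem86a and Cyb5r1. Over the 12 stimulated arrays the same pairs had 0.962, 0.87 and 0.843. Over the 8 stimulated arrays without GW3965 they had 0.815, 0.402 and 0.00774. Among other genes, Ptger2, the prostaglandin E2 receptor EP2, was second for Tmem86a (r = 0.943) and Ap5s1 (0.919) and first for Cyb5r1 (0.915). Its mean log2 intensity was 0.74 in GW3965 + LPS cells, -0.83 in LPS cells and 1.39 in untreated cells.

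The remaining genes most like Tmem86a were Tmem81 (r = 0.927), Tnfaip8l1 (0.924) and Ugp2 (0.922), the last an enzyme that makes UDP-glucose. Without centring within array sets, they had r = 0.761, 0.623 and 0.739 in turn, against 0.945 for Ap5s1. Tmem81 and Tnfaip8l1 were dim, with group means of log2 intensity from -2.79 to -0.27 and from -1.86 to 0.30. Next to Ap5s1 came Scarb1, a receptor for high-density lipoprotein (r = 0.909, and 0.871 without centring), and Mkrn2 (0.907, and 0.778 without centring). Near Cyb5r1 were Eepd1 (0.901), Cbr3, a carbonyl reductase (0.897), and As3mt, an arsenic methyltransferase (0.893). Eepd1, an LXR target, also ranked 6th for Ap5s1 and 85th for Tmem86a. Among other LXR targets, Abcg1, the cholesterol exporter, ranked 1072nd for Tmem86a, 220th for Ap5s1 and 96th for Cyb5r1, and Abca1 ranked 3996th, 2787th and 1846th.

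The levels in untreated cells show where those targets differed. Under GW3965 + LPS, Abcg1 stood above untreated cells by a log2 difference of 1.53 (SE 0.39), Scd2, a fatty acid desaturase, by 2.37 (SE 0.69), Cd5l, a secreted scavenger receptor protein, by 1.65 (SE 0.35) and Abca1 by 3.77 (SE 0.53). Eepd1, which has been described as an LXR target that supports Abca1 in cholesterol efflux, was above its untreated level by less (+0.46, SE 0.32). Its arrays were 15.9 and 16.3, against 10.9 and 12.5 in untreated cells, with no overlap. Cyb5r1 overlapped its untreated level (+0.05), whereas Ap5s1 (-0.53) and Tmem86a (-1.30) were below theirs on both arrays. Abca1 had a mean log2 intensity of 1.21 in GW3965 + LPS cells, -0.91 in LPS cells and -2.56 in untreated cells, so its LPS level was above its untreated level. Its probe was dim without GW3965, below the array median at 0.1405 and 0.204 in untreated cells and 0.336 and 0.838 in LPS cells. Of 25 LXR targets measured and tested, 19 stood above untreated cells under GW3965 + LPS, with a median log2 difference of 0.58 against 0.13 over all probes.

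**Figure D3:**
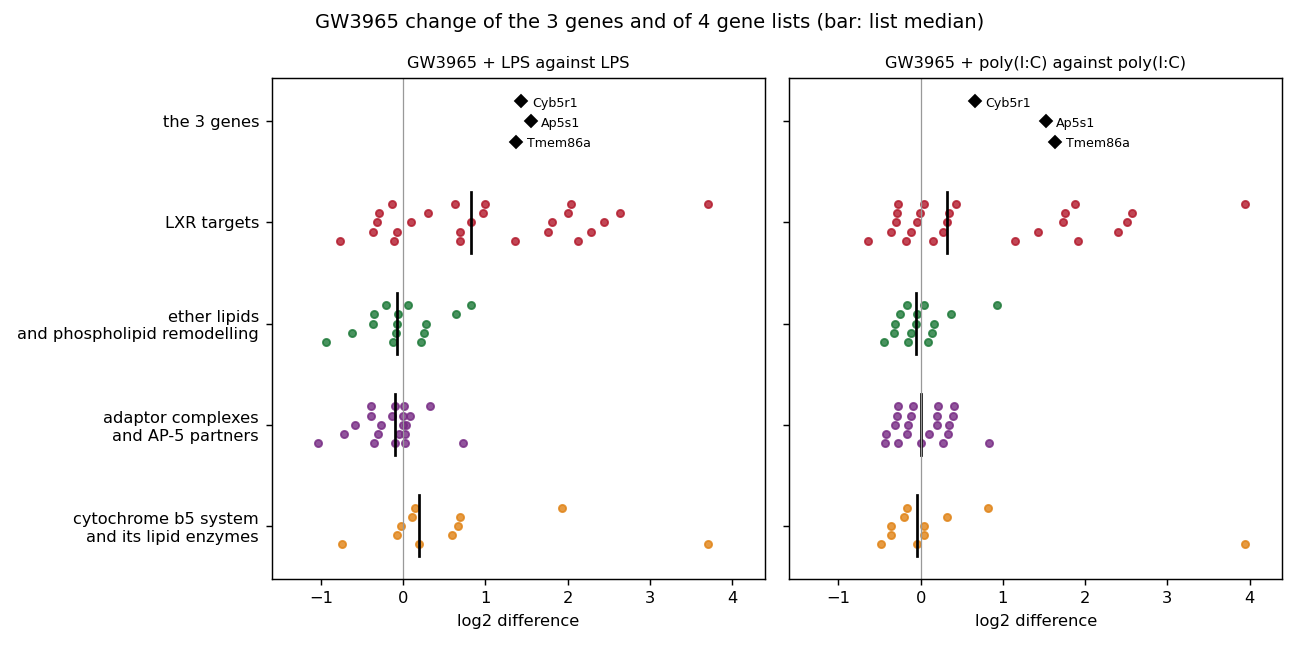
Log2 difference of GW3965 + LPS against LPS (left) and GW3965 + poly(I:C) against poly(I:C) (right) for the 3 genes (diamonds) and for the tested genes of 4 lists (points, with a bar at the median). Some LXR targets reach beyond the 3 genes, while the ether lipid and adaptor lists centre near 0.

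In the list of 25 tested LXR targets, 2 were called higher in GW3965 + LPS than in LPS cells by limma (Eepd1 with +2.64 and Cd5l with +2.44) and none lower. With array set as a block there were 6, which added Scd2 (+3.71), Abcg1 (+2.28), Fasn, the fatty acid synthase (+2.03), and Mid1ip1, a regulator of lipogenesis (+1.76). Over all probes, 0.0313% were called under LPS and 0.0104% under poly(I:C), or 0.407% and 0.073% with the block. The list median under LPS was 0.83, against 0.03 over all probes. Under poly(I:C), Eepd1 (+2.57) was called, and with the block Scd2 (+3.95), Abcg1 (+2.40), Cd5l (+1.91) and Mid1ip1 (+1.74) too, with a list median of 0.32 against -0.10 over all probes. The 3 genes' differences thus lay above the list median under both stimuli and below those of its called members.

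Lists of pathway partners were set beside each gene. With so few of all probes called in the GW3965 comparisons (0.0313% and 0.0104%, or 0.407% and 0.073% with the block), a list with none called is no result about that list. At an unadjusted p under 0.05, limma had 3.11% of all probes under LPS and 1.49% under poly(I:C), and 9.76% and 6.19% with the block. For Tmem86a, 15 of 32 listed genes of ether lipids and phospholipid remodelling were tested, and none was called by limma in either GW3965 comparison with or without the block (unadjusted p under 0.05: 0 under LPS and 0 under poly(I:C), and 1 and 0 with the block), with medians of -0.07 under LPS and -0.06 under poly(I:C). The highest were Selenoi, an ethanolamine phosphotransferase (+0.82 under LPS), and Pex5, the peroxisomal import receptor (+0.92 under poly(I:C)), and the lowest was Chpt1, a choline phosphotransferase (-0.94 and -0.44). In GW7845 + poly(I:C) cells against untreated cells, Pla2g6, a phospholipase A2, fell as Tmem86a did (log2 difference -2.15, limma adjusted p = 0.006). Pla2g4a, the cytosolic phospholipase A2 that releases arachidonate, rose by 1.48 (limma adjusted p = 0.036), and Pla2g7, which hydrolyses platelet-activating factor, rose by 1.44 (limma adjusted p = 0.042). In GW7845 + LPS cells against untreated cells, Pla2g4a rose by 1.45 (limma adjusted p = 0.046), while Pla2g6 (-1.33) and Pla2g7 (+1.22) did not pass (limma adjusted p = 0.1 each, and 0.013 and 0.02 with the block). Only with the block, Gnpat (-1.26 and -1.205) and Pafah1b3 (-1.43 and -1.34) were called lower under LPS and poly(I:C), and Hacl1 (-1.07) under LPS. Over all probes, 8.99% and 6.7% were called lower with the block.

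For Ap5s1, 21 of 32 listed genes of adaptor complexes and AP-5 partners were tested, and none was called by limma with GW3965 with or without the block (unadjusted p under 0.05: 0 under LPS and 0 under poly(I:C), and 0 and 0 with the block), with medians of -0.098 and 0.0038. Ap5m1, the mu subunit of AP-5, had log2 differences of -0.05 in GW3965 + LPS against LPS and -0.16 in GW3965 + poly(I:C) against poly(I:C) (SE 0.46 each). Against untreated cells Ap5m1 was at -0.56 in GW7845 + LPS cells and -0.20 in GW7845 + poly(I:C) cells (limma adjusted p = 0.66 and 0.93). One other sigma subunit, Ap1s2 of the AP-1 complex, fell in GW7845 + LPS cells (-2.01, limma adjusted p = 0.0048) and in GW7845 + poly(I:C) cells (-1.66, limma adjusted p = 0.015) against untreated cells.

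For Cyb5r1, 11 of 24 listed genes of the cytochrome b5 system and its lipid enzymes were tested. None was called by limma with GW3965 (unadjusted p under 0.05: 2 under LPS and 1 under poly(I:C), and 3 and 1 with the block), and with the block only Scd2 was, under both stimuli, which is also on the LXR list. The list medians were 0.19 and -0.05. The electron carriers themselves showed small differences with GW3965, +0.14 and +0.04 for Cyb5a (SE 0.66) and -0.08 and -0.36 for Cyb5b (SE 0.37), under LPS and poly(I:C) in turn. Fads2, a fatty acid desaturase that takes electrons from cytochrome b5, had +1.93 and +0.82, and Cyp51, an enzyme of cholesterol synthesis, had -0.74 and -0.48. Against untreated cells, Cyb5b was called higher only with the block, in GW7845 + LPS (+0.98) and GW7845 + poly(I:C) cells (+1.185). Scd2 was called lower with the block in GW7845 + poly(I:C) cells (-2.19).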

How the data were processed

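The 14 one-colour arrays were placed in 7 groups of 2 by their titles. The deposited table holds linear intensity values for 10012 probes, which the authors had scaled to a median of 1 (1 to 1.0007 per array). How the values were scaled, with which software, and the probe sequences are not given here. Per the labels' protocols, total RNA was amplified and labelled with biotin. Of the probes, 8983 had 1 gene symbol, 1 had several and 1028 had none.

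Intensity was raised to a floor (5th percentile of positive values, 0.0686) and log2 was taken. Probes above the 20th percentile on at least 2 arrays were tested (9584). Group means were fitted to all arrays in limma 3.58.1 (R 4.3.3) with an intensity trend, two-sided, with Benjamini-Hochberg adjustment over all tested probes, after a check on simulated data. A probe was called at an adjusted p under 0.05. Intervals are 95% intervals of that fit. Array sets came from the widest gap in the arrays' 10th percentile of intensity (0.137 to 0.271 in A, 0.0549 to 0.0833 in B), and 29 and 30 probes lacked values on all of one set only. Where 1 array was left out, its partner was assumed to vary like the other groups. The p-values measure the spread between the deposited replicates of all groups, those used for selection included. The array set difference is part of that spread unless it was a block. The number of arrays limits the precision. No detection calls were used.

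The 3 genes and the gene lists were chosen with earlier results of these data known. Beside the 3 genes, the text names the 5 probes most like each (Pearson r of set-centred log2 intensity) and 5 LXR targets. From each list it names some of the called genes, extremes and close relatives that were measured. Macrophage, B cell, T and NK cell, neutrophil, mast cell and eosinophil, and mesothelium and fibroblast markers were summed. B cell markers summed to 8.47 to 21.1 and T and NK cell markers to 2.26 to 5.83 on every array. Mast cell and eosinophil markers summed to 0.724 to 2.13, and mesothelium and fibroblast markers to 1.28 to 3.49. Alternatives were array set or replicate number as a block, quantile normalization, a floor at the 1st percentile, no filter, no trend and leaving out each array. Leaving out an array together with the array set block was added after seeing the data. Promoter windows came from RefSeq for GRCm38.p6, and all 3 genes matched.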

Additional observations from a re-analysis of the deposited data

How the results depend on the processing

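The log2 differences of the 3 genes kept their direction in every tested comparison under all alternatives run. With array set as a block, the number of probes called was 1690 against 628 without it in GW7845 + LPS against untreated cells, 1593 against 723 in GW7845 + poly(I:C) against untreated cells and 11 against 1 in GW7845 + poly(I:C) against GW7845 + LPS cells. For the last of these, quantile normalization gave 2 and no intensity trend gave 0. Cyb5r1 passed with array set as a block in GW7845 + LPS (-0.8975) and GW7845 + poly(I:C) cells (-1.042) against untreated cells, and under quantile normalization in GW7845 + poly(I:C) against untreated cells (-1.28). Without an intensity trend, Ap5s1 in GW7845 + LPS against untreated cells (-1.461) had a limma adjusted p of 0.08. Quantile normalization moved Cyb5r1 to 1.547 in GW3965 + LPS against LPS, -1.542 in LPS against untreated, -1.189 in poly(I:C) against untreated and 0.6187 in GW7845 + LPS against LPS. It also put the median of all probes at -0.08 in place of 0.06 in LPS against untreated and at -0.08 in place of 0.10 in poly(I:C) against untreated. The causes were not tested.

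The replicate numbers share only a number. The deviations of same-numbered arrays correlated at -0.54 to -0.391 in the 6 pairs of groups with GW7845 + LPS and at 0.354 to 0.674 in the other 15. With replicate number as a block, 966 probes were called in GW7845 + LPS against untreated and 5 in GW7845 + poly(I:C) against GW7845 + LPS cells, and Cyb5r1 passed in GW7845 + poly(I:C) against untreated cells (-1.042, limma adjusted p = 0.045).

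Leaving out 1 array gave 343 to 455 called probes in GW7845 + LPS against untreated cells, with the lowest 3 counts without GW7845 + LPS replicate 2 (343), GW7845 + LPS replicate 1 (362) and untreated replicate 1 (381). It gave 511 to 599 in GW7845 + poly(I:C) against untreated, and 0 to 48 in GW7845 + poly(I:C) against GW7845 + LPS cells, with 48 without GW7845 + poly(I:C) replicate 2. The log2 difference of Ap5s1 in GW7845 + LPS against untreated cells ranged from -1.73 to -1.191, and that of Cyb5r1 in GW7845 + poly(I:C) against untreated cells from -1.184 to -0.8992 with and without the array set block. With that block as well, Ap5s1 was not called without GW7845 + LPS replicate 2 (-1.463) or untreated replicate 1 (-1.066). Without GW7845 + poly(I:C) replicate 1, which lies outside that comparison, 729 probes were called in GW7845 + LPS against untreated cells.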
